A study of Arabidopsis thaliana with 9 samples.

Results

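In anthers of the Arabidopsis thaliana ams mutant, a small set of genes stood below the level of both wild-type and dyt1 anthers. The set holds the probe sets, the groups of short DNA probes that read a transcript on an Affymetrix array, whose highest value in ams lay at least 1 log2 unit below the lowest of the 6 wild-type and dyt1 values. Of 22746 probe sets, 28 met this condition (0.123%), and 26 form the set described here. AOP3 and AT1G58025 also met it, with gaps of 2.71 and 2.76, and were left out by name, as were any cytochrome P450 (CYP), UGT, SWEET and plastid genes. The rule also leaves out RBOHE, A9, AT5G62080, AT1G42705 and AT2G16960 by name, and no probe set annotated to them met the condition. Of the 26 members, 19 read 1 named gene, 2 read a pair of genes each, and 5 are not named in the platform annotation used here. Members were chosen on their values in ams against the other genotypes, so those values are given as a description with no test. The difference between dyt1 and wild type was not itself part of the rule, and its test is given below. It is not independent of the rule, which sets a floor under the values of both genotypes and so bars genes that are at or near the ams level in either.

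The study profiled 9 samples of anthers dissected at stages 4 to 7 from young floral buds: 3 from wild-type plants of the Columbia accession, 3 from dyt1 and 3 from ams mutant plants, which count as biological replicates per the labels. The labels name neither the alleles nor the accession in which the mutants were made, and all plants were grown at 22 °C in long days on the same protocol. Expression values are on the log2 scale, made by the authors with RMA, which corrects background, equalises the arrays' distributions and summarises the probes of a set. Each array holds RNA of whole anthers, so fewer cells of a type and less RNA per cell cannot be told apart.

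AMS (ABORTED MICROSPORES) and DYT1 (DYSFUNCTIONAL TAPETUM) are regulators of the bHLH class that act in the tapetum, the inner layer of the anther wall that surrounds the meiocytes. The tapetum secretes the enzymes, sugars, lipids and wall precursors from which pollen grains are built, and it later dies and coats the grains with its contents. DYT1 acts upstream of AMS in the tapetal regulatory cascade, and both mutants are male sterile.

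RNA quality, judged here only from control probe sets, appeared to differ between arrays within wild type and within dyt1. All ams arrays fell on the high side of 25S signal. The control probe set for 25S ribosomal RNA read 5.51 to 9.59 in wild type 1, wild type 2, dyt1 1 and dyt1 3, and at 11.5 to 12.45 in wild type 3, dyt1 2 and all ams arrays. The actin 3' minus 5' difference, which grows as RNA degrades, was 1.04 to 1.38 in the first 4 arrays and 2.10 to 2.92 in the other 5. An older pair of actin control probe sets did not divide the arrays this way, with 2.45 and 2.64 in wild type 1 and 2 and 3.61 to 4.13 in the other 7. The spike-in controls averaged 3.89 and 3.76 in wild type 1 and 2 and 6.73 to 7.25 in the other 7. AMS itself stood at 7.55 to 7.93 in wild type, 3.96 to 5.66 in dyt1 and 9.36 to 9.61 in the arrays labelled ams. No source used here places its probes with respect to the mutation, so this level does not check the label, and DYT1 was not analysed here. The anther label was checked on 51 tapetum and pollen wall genes, of which 15 had a probe set annotated to that gene alone. Such genes are called measured here, and genes read only by unnamed or shared probe sets are not counted. The mean level of the 15 was 9.25 to 10.12 in wild type, 5.55 to 7.88 in dyt1 and 7.97 to 9.73 in ams. A group mean at or below 4.78, the highest lower quartile of the 9 arrays, was treated as background, and no fold is given against it.

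In wild type and dyt1 the 26 members ran from weak to very strong signal, with group means from 5.69 to 12.29 in wild type (median 8.08) and from 5.94 to 12.54 in dyt1 (median 7.86). None of these means lay at background. In ams the means ran from 3.91 to 9.30 with a median of 5.24, and 10 of the 26 cannot be told from background. The differences of ams from wild type had a median of -2.39 and ranged from -4.58 to -1.28 on the log2 scale, beside a median of -0.05 over all probe sets. Among the 16 members still above background in ams, wild type exceeded ams by 2.43- to 16.9-fold and dyt1 exceeded it by 2.44- to 15.1-fold.

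**Figure D1:**
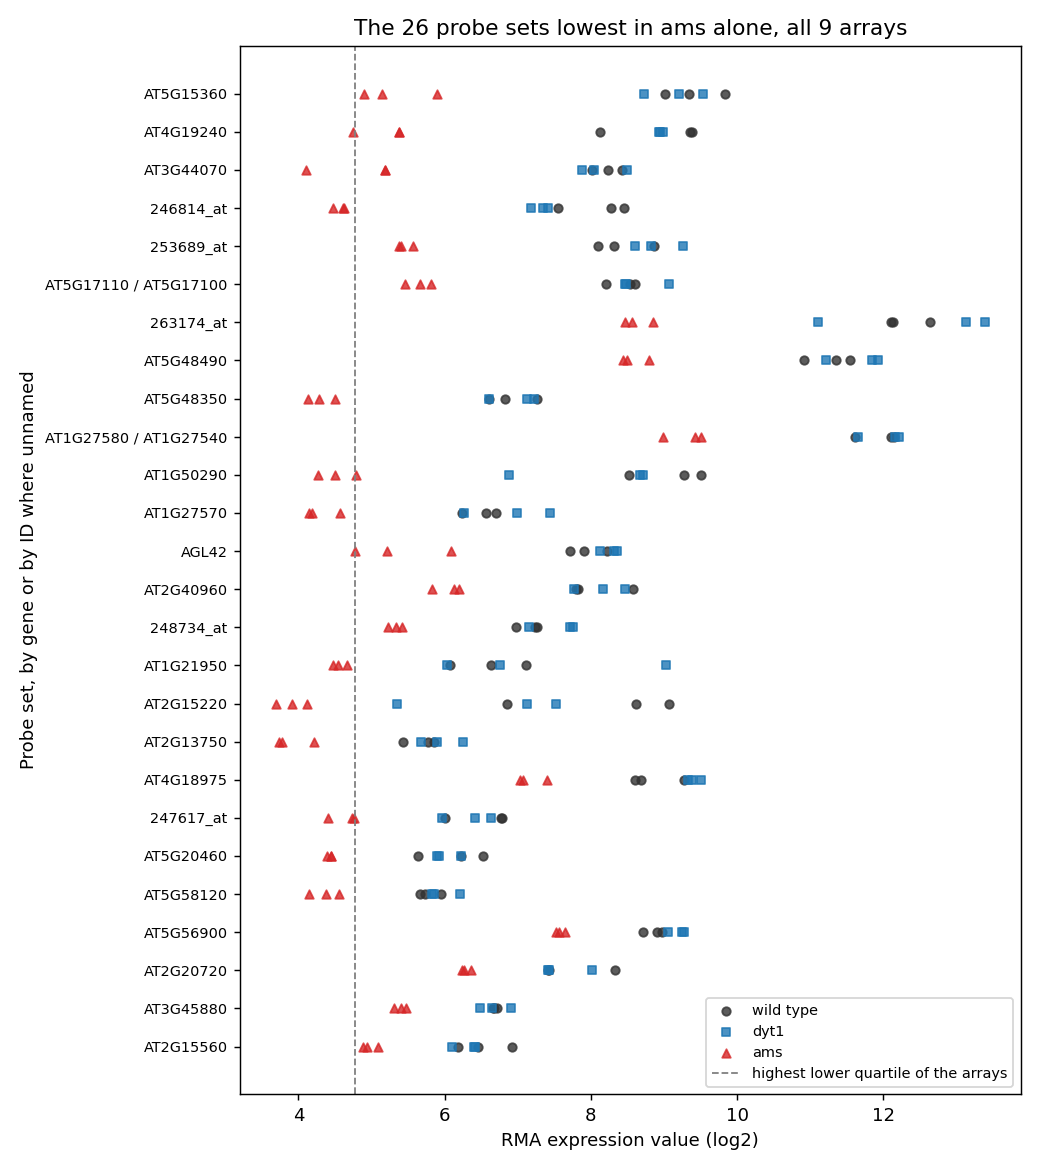
Each row is 1 of the 26 probe sets, ordered by the gap between ams and the other arrays, and each point is the log2 RMA value of 1 array. All 3 ams values lie to the left of the 6 other values in every row, as the choice of members requires, and the dashed line at 4.78 marks the background level.

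The members with a known regulatory role were AGL42 and AT3G45880. AGL42, also called FOREVER YOUNG FLOWER, is a MADS-box transcription factor known for delaying the senescence and shedding of floral organs. It stood at 7.91, 8.22 and 7.72 in wild type, 8.31, 8.36 and 8.12 in dyt1, and 5.21, 6.09 and 4.78 in ams. The ams arrays were low by 6.0-fold against the wild-type mean, and they spread more widely (SD 0.67) than those of any other member. AT3G45880 encodes JMJ32, a jumonji protein of the histone demethylase family. Its values were 6.67, 6.66 and 6.71 in wild type, 6.49, 6.91 and 6.65 in dyt1, and 5.31, 5.41 and 5.47 in ams, a 2.43-fold difference of wild type over ams that was small but uniform across arrays.

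Strong signals that were reduced but still clearly present in ams formed a second kind of member. AT5G48490, which encodes a small lipid transfer protein related to the systemic immunity protein DIR1, stood at 11.35, 11.55 and 10.92 in wild type, 11.85, 11.21 and 11.92 in dyt1, and 8.49, 8.79 and 8.44 in ams. Wild type lay 6.49-fold above ams and dyt1 8.5-fold. The probe set shared by AT1G27580 and AT1G27540, whose reads cannot be divided between the pair, stood at 12.11, 12.15 and 11.61 in wild type, 12.16, 11.65 and 12.21 in dyt1, and 9.5, 8.98 and 9.43 in ams. The ranges of wild type and dyt1 overlapped, and ams was low by 6.29-fold against wild type. The brightest member, the unnamed probe set 263174_at, had 12.64, 12.10 and 12.13 in wild type, 13.39, 11.11 and 13.13 in dyt1, and 8.47, 8.85 and 8.56 in ams. Its lowest value outside ams was that of dyt1 2.

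AT4G18975 and AT2G20720, pentatricopeptide repeat proteins of the class that binds organelle RNA, also kept measurable levels in ams. AT4G18975 stood at 8.61, 8.69 and 9.28 in wild type, 9.50, 9.38 and 9.33 in dyt1, and 7.07, 7.40 and 7.03 in ams. Its 3 dyt1 values all lay above the 3 wild-type values. AT2G20720 had 7.43, 7.41 and 8.33 in wild type, 7.42, 8.02 and 7.43 in dyt1, and 6.24, 6.36 and 6.27 in ams, with wild type 3 and dyt1 2 the highest arrays of their genotypes. AT5G56900 had 8.97, 8.71 and 8.91 in wild type, 9.06, 9.24 and 9.27 in dyt1, and 7.57, 7.52 and 7.65 in ams, and AT2G40960 ran from 7.77 to 8.57 outside ams and from 5.83 to 6.20 in ams.

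The widest gaps belonged to loci without a symbol in the annotation. AT5G15360 stood at 9.83, 9.34 and 9.02 in wild type, 8.73, 9.54 and 9.21 in dyt1, and 4.90, 5.15 and 5.89 in ams, a gap of 2.84 between the nearest arrays. AT4G19240 had 9.38, 9.35 and 8.13 in wild type, 8.94, 8.93 and 8.98 in dyt1, and 5.38, 4.75 and 5.38 in ams. AT3G44070 had 8.23, 8.02 and 8.43 in wild type, 7.88, 8.49 and 8.04 in dyt1, and 5.18, 4.11 and 5.18 in ams. In these 3 loci wild type exceeded ams by 16.9-, 13.8- and 10.6-fold, and the dyt1 means were within 0.23 of the wild-type means. The probe set shared by AT5G17110 and AT5G17100 stood at 8.21 to 8.60 in wild type, 8.46 to 9.07 in dyt1 and 5.46 to 5.81 in ams. The unnamed 253689_at stood at 8.10 to 8.87, 8.60 to 9.26 and 5.38 to 5.57 in the same order of genotypes, and 248734_at at 6.98 to 7.27, 7.16 to 7.75 and 5.22 to 5.42.

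In 10 members the ams signal was at background, so that only the difference of signal is known. AT1G50290 had the largest, -4.58 from wild type: it stood at 9.51, 9.27 and 8.52 in wild type, 8.67, 6.88 and 8.71 in dyt1, and 4.27, 4.79 and 4.5 in ams. AT2G15220, which encodes a protein of the plant basic secretory protein family and is read by a probe set that may also detect related transcripts, had 8.62, 9.07 and 6.86 in wild type, 7.53, 5.35 and 7.12 in dyt1, and 4.12, 3.69 and 3.91 in ams. In both loci dyt1 2 was the lowest array outside ams. AT1G21950 went the other way in that array, with 6.07, 6.63 and 7.11 in wild type, 6.03, 9.03 and 6.76 in dyt1, and 4.66, 4.47 and 4.54 in ams. AT5G58120, a member of the TIR-NB-LRR class of immune receptors, stood at 5.66 to 5.95 in wild type, 5.83 to 6.21 in dyt1 and 4.15 to 4.56 in ams. The remaining members at background in ams were AT5G48350, AT1G27570, AT5G20460, AT2G13750, which RefSeq annotates as a pseudogene, and the unnamed 246814_at and 247617_at, with differences from wild type between -3.52 and -1.70.

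Near the threshold the members were AT2G15560, AT3G45880 and AT2G20720, with gaps of 1.01, 1.02 and 1.05. AT2G15560 stood at 6.92, 6.45 and 6.18 in wild type, 6.42, 6.40 and 6.10 in dyt1, and 4.88, 4.94 and 5.09 in ams. Just outside it were AT2G40570, AT1G63540 and AT5G59650, with gaps of 0.999, 0.948 and 0.914. The size of the set depended on single arrays: it was 66 probe sets without wild type 3 and 40 without dyt1 2, each time including all 26, since leaving out an array can only widen the set. Without wild type 3 genotype cannot be told apart from 25S signal in ams against wild type.

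Between dyt1 and wild type no member passed the test, a count that the floor under both genotypes partly fixes and from which nothing is read about the members. In limma's moderated test, adjusted over all 22746 probe sets, 0 of the 26 members were called at an adjusted p under 0.05, beside 0.193% of all probe sets. At an unadjusted p under 0.05 there were 4 members (15.4%), beside 14.5% of all probe sets: AT2G15220 and 246814_at, lower in dyt1, and AT4G18975 and AT5G56900, higher in dyt1. The differences of dyt1 from wild type had a median of 0.08 (all probe sets 0.05) and lay between -1.52 and 0.67, with 16 members higher and 10 lower in dyt1. Over all probe sets, 55.5% were higher in dyt1. In 2 members every dyt1 value lay above every wild-type value (10.2% of all probe sets), and in 1 every dyt1 value lay below (8.26%).

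The width of the interval of this difference varied between members. AT3G45880 differed by 0.00 on the log2 scale (95% interval -0.32 to 0.33, n = 3 per group, limma adjusted p = 0.992), beside a difference of -1.28 in ams. AT5G48490 differed by 0.39 (interval -0.16 to 0.94, limma adjusted p = 0.486), and AGL42 by 0.32 (interval -0.38 to 1.02, limma adjusted p = 0.669). The smallest limma adjusted p belonged to 246814_at, at 0.195, with a difference of -0.78 (interval -1.29 to -0.26). For AT1G50290 and AT2G15220 the intervals were wide, -2.11 to 0.09 and -3.02 to -0.01 (limma adjusted p = 0.385 and 0.342), and neither difference passed.

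**Figure D2:**
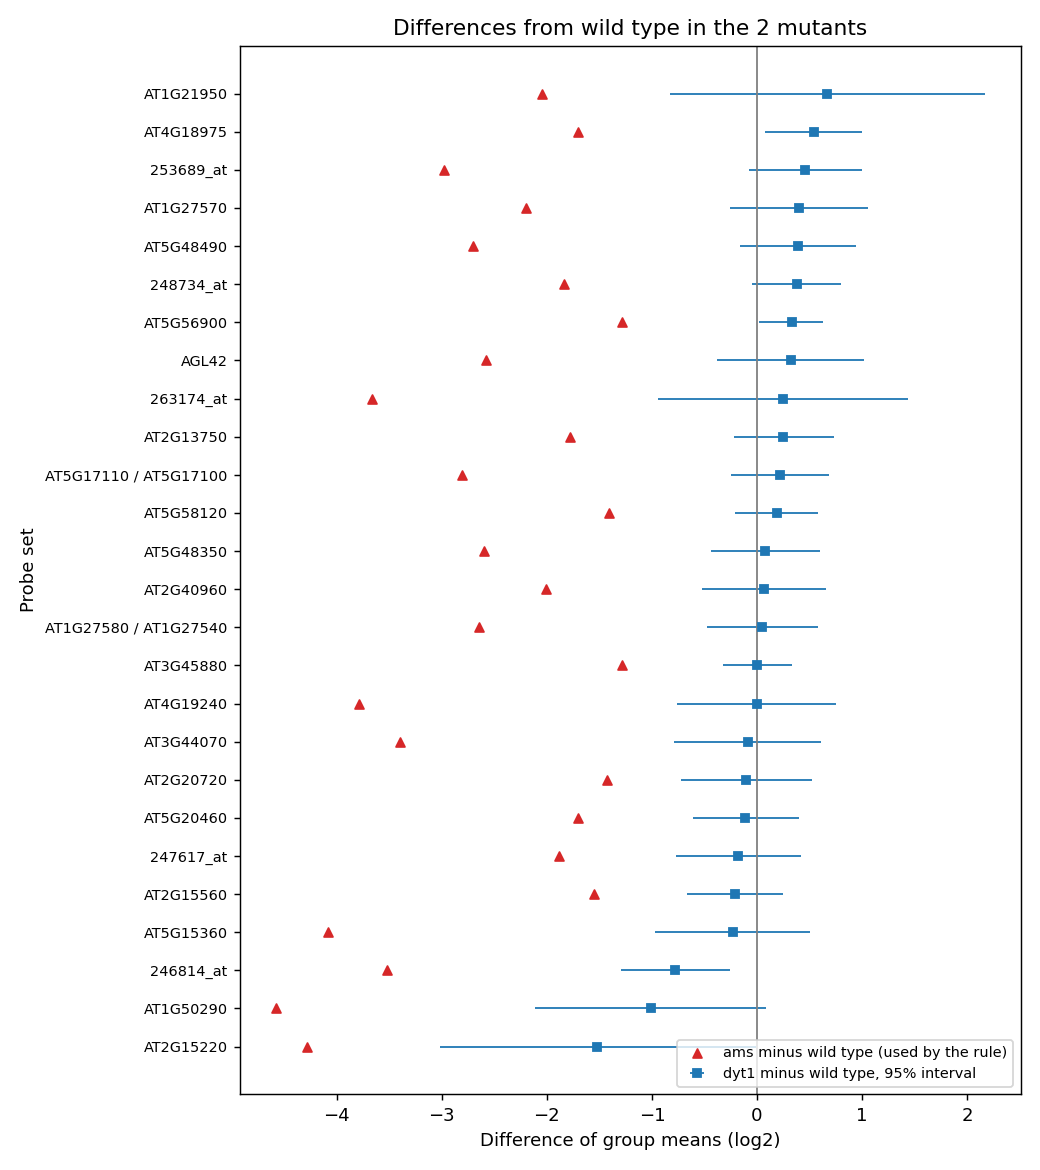
For each of the 26 probe sets, blue squares show the dyt1 minus wild-type difference of means on the log2 scale with its 95% interval from limma, and red triangles show ams minus wild type, which chose the members. The squares lie between -1.52 and 0.67 and the triangles between -4.58 and -1.28.

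This count depended on how the arrays of differing control signals were treated. With the 25S set as a block, 1 member, AT2G15220, was called (-1.52, limma adjusted p = 0.0222, beside 1.2% of all probe sets). Without both wild type 3 and dyt1 2, 4 members were called beside 16.4% of all: AT2G15220 and AT1G50290 were lower in dyt1 and AT4G18975 and 263174_at higher, in a comparison where genotype cannot be told apart from the spike-in level. With array weights 9 members were called, beside 38.4% of all probe sets. The members' shares, 4 of 26 and 9 of 26, were near these backgrounds.

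The rule also holds wild type 3 and dyt1 2, the arrays of high 25S signal in their genotypes, at least 1 log2 unit above ams, so genes low in those arrays were barred from the set and the following values are a description. The median over the 26 members was 7.87, 8.12 and 8.23 in wild type 1, 2 and 3, 7.74, 8.19 and 7.73 in dyt1 1, 2 and 3, and 5.20, 5.05 and 5.20 in ams. Wild type 3 and dyt1 2 had the highest medians of their genotypes. Member by member, wild type 3 differed from the mean of wild type 1 and 2 by a median of 0.10 (all probe sets -0.04), and dyt1 2 from dyt1 1 and 3 by a median of 0.23 (all probe sets 0.07). In wild type 3, 10 members were lower (52.8% of all probe sets), and in dyt1 2, 9 were lower (44.0% of all probe sets). Lower in both were 6 members, and the share over all probe sets was not computed for both together. Against wild type 3 and dyt1 2 alone the ams means were lower by a median difference of -2.48, with a range from -3.97 to -1.32, and against the 4 arrays of low 25S signal the median difference was -2.37; the rule guarantees a difference beyond 1 in both cases. The part of RNA quality in the members' levels was not tested. The members that did fall in both high 25S arrays included AT2G15220 (-1.99 and -1.97) and AT1G50290 (-0.87 and -1.82).

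**Figure D3:**
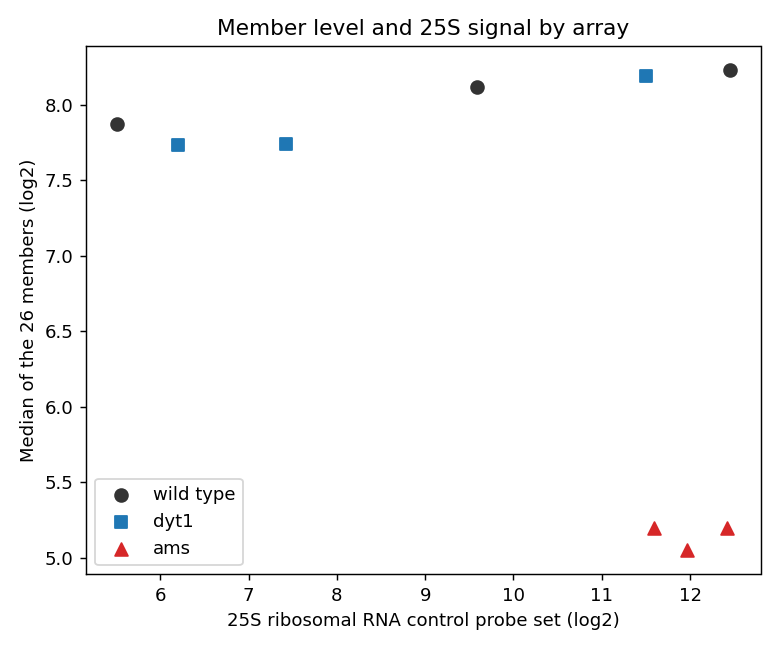
Each point is 1 of the 9 arrays, with the 25S ribosomal RNA control signal on the x axis and the median of the 26 members on the y axis, both on the log2 scale. At 25S signals of 11.5 and above, wild type 3 and dyt1 2 sit at 8.23 and 8.19 and the 3 ams arrays at 5.05 to 5.20.

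None of the members belonged to the 15 measured tapetum and pollen wall genes, nor to the 4 meiocyte, 2 maturing pollen, 3 green tissue or 2 ovule and carpel genes measured. The rule partly fixes this absence, because it bars genes at or near the ams level in dyt1. It also leaves out RBOHE, AT5G07230 (A9), AT5G62080 and SWEET8 of the tapetal list by name, though none of them met the gap. Nothing is read from the absence about the members. Of those 15 tapetal genes, 1 rose and 1 fell in ams against wild type (limma, called over all probe sets at 2.45% higher and 1.06% lower), namely AMS (1.72, adjusted p = 0.0413) and RBOHE (AT1G19230), an NADPH oxidase (-3.35, adjusted p = 0.0151). Their median difference was -0.81 in ams and -2.93 in dyt1, where AMS fell and the other 14 did not pass. These counts ran from 0 to 5 when single arrays were left out, and both were 5 without dyt1 2. In that setting 2.55% of all probe sets were called lower and 4.59% higher in ams against wild type. The share for dyt1 against wild type was not computed there. Among the other lists, LHCB4.2 of green tissue rose in ams (1.23, limma adjusted p = 0.00908) and no other gene was called in either mutant. The mean of the 3 green tissue genes was 11.07 to 11.42 in wild type, 11 to 11.38 in dyt1 and 11.47 to 11.92 in ams, and that of the 4 meiocyte genes was 4.96 to 6.30, 5.43 to 6.16 and 5.44 to 6.68. Whether these shifts have a part in the members' levels was not tested.

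By chromosome order in the RefSeq annotation, the 21 named members lay on all 5 chromosomes, with 4, 5, 2, 2 and 8 on chromosomes 1 to 5, and several lay near each other. AT1G27570 lies between the pair of genes read by the shared AT1G27580 and AT1G27540 probe set. AT5G48350 and AT5G48490 have 23 annotated genes between them, AT4G18975 and AT4G19240 have 38, and AT2G15220 and AT2G15560 have 48. Of the 19 members with 1 gene, 7 (36.8%) had another member within 100 gene positions, beside 9.87% of the other measured genes. Both genes of each close pair are counted, and AT1G27570 counts only through the shared probe set. The 7 are thus not independent of each other, and the shares were not tested. On chromosome 2, AT2G15560 and AT2G15220 lie 184 and 233 genes from AMS, and AT2G13750 and AT2G20720 lie 459 and 488 genes from it. The remaining member there, AT2G40960, lies 3173 genes away. The share of measured genes at such distances from AMS was not computed.

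Genes next to the members were called in ams about as often as all probe sets. The 5 nearest measured genes on each side of the 19 members made 187 neighbours, with a median difference of -0.05 between ams and wild type. In limma's test over all probe sets 0 of them were lower in ams, beside 1.06% of all probe sets, and 4 were higher (2.14%), beside 2.45%. At an unadjusted p under 0.05, 26 neighbours (13.9%) were lower, beside 11.7% of all probe sets. Without wild type 3 the counts were 17 lower and 16 higher (9.09% and 8.56%), beside 10% and 8.2% of all probe sets. Without dyt1 2 they were 4 lower and 7 higher (2.14% and 3.74%), beside 2.55% and 4.59% of all probe sets. Of the 38 measured genes nearest to a member on either side, 3 were called higher and 0 lower. That is a larger share called higher than the 2.45% of all probe sets, but it rests on 3 genes and was not tested. They were AT5G20450, next to AT5G20460, by 2.36 (limma adjusted p = 0.000283), and AT5G48340, next to AT5G48350, by 0.85 (limma adjusted p = 0.0377). The third was AT1G22010, by 2.11 (limma adjusted p = 0.0289), the nearest measured gene after AT1G21950 with 8 annotated genes between them. The lowest neighbours were DD46 at -2.71 and AT5G56920 at -1.90, which did not pass (limma adjusted p = 0.102 and 0.0771).

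**Figure D4:**
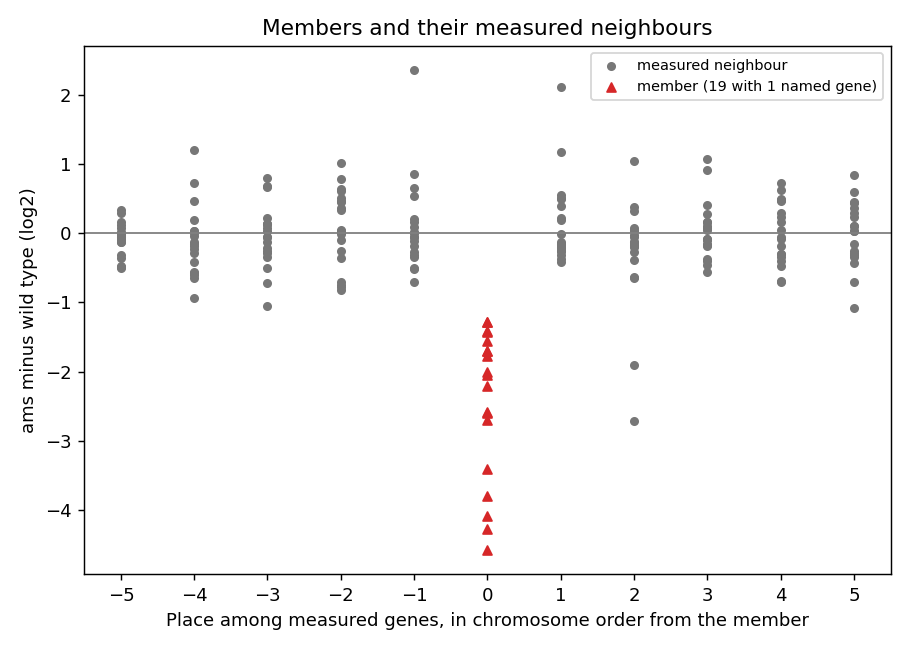
Differences of ams from wild type on the log2 scale are plotted for the 19 members with 1 named gene at place 0 and for the 5 nearest measured genes on each side in chromosome order. Neighbours centre on a median of -0.05, and members lie between -4.58 and -1.28.

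Outside the set, the named genes with the most similar profile over the 9 arrays were AT5G08460, AT3G26800, AT1G14430, AT1G30880 and AT3G47330, with Pearson correlations of 0.983, 0.971, 0.969, 0.968 and 0.967 to the members' mean profile. This is a description over 9 arrays that fall into ams and the rest. AT1G30880 was the brightest, at 10.38, 10.59 and 10.26 in wild type, 10.35, 10.63 and 10.64 in dyt1 and 9.39, 9.52 and 9.57 in ams. Their gaps lay under 1 log2 unit, from 0.49 for AT1G14430 to 0.87 for AT3G47330.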

How the data were processed

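The authors deposited log2 expression values per probe set for 9 Affymetrix arrays, for which the submitters' processing notes name RMA and no version. No source used here says whether all arrays were normalized in 1 run. The table held 22810 probe sets, of which 64 control probe sets were left out of tests. The platform annotation named 1 gene for 13513 of the other 22746, several for 503 and none for 8730, and 13367 of the 1-gene probe sets matched a nuclear or organelle locus of the RefSeq TAIR10.1 assembly by gene ID. That assembly was used only for names and gene order.

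One linear model with a mean per genotype was fitted to the 9 arrays (limma 3.58.1, R 4.3.3, lmFit then eBayes), and dyt1 against wild type and ams against wild type were adjusted by Benjamini-Hochberg over 22746 probe sets. The fit was tested on simulated data. The number of arrays limits the precision. The text names every member with 1 gene, the nearest genes on each side of the threshold and the 5 most similar other genes. Other members, list genes and neighbours were named after their values were seen. The members and lists were chosen with earlier results of these data known, and the neighbour counts were added after seeing the data. Roles of loci without a symbol are background knowledge. Same-numbered arrays correlated from -0.01 to 0.24 in their deviations from the group means, so the numbers were not taken as pairs.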

Additional observations from a re-analysis of the deposited data

How the results depend on the processing

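Whichever single array was left out, 0 members were called in dyt1 against wild type, and so it was with the replicate block, the 2 genotypes alone, centring, renewed quantile normalization, an intensity trend, the filter on dim probe sets and an adjusted p under 0.01. It was 1 with the 25S set as a block, 4 without wild type 3 and dyt1 2, and 9 with array weights. The members' median difference of dyt1 from wild type was 0.0753, and its range without single arrays was -0.0159 to 0.201. It was -0.0308 with arrays centred on their medians and 0.0753 with the replicate block. The rule gave 78, 15 and 11 probe sets at gaps of 0.5, 1.5 and 2, and 26 to 66 without single arrays; after centring it gave 28, of which 24 were members, and after quantile normalization 27, of which 24 were members. Of the tapetum and pollen wall list, 1 gene was called in dyt1, 2 with the replicate block, centring or the dim filter, and 0 to 5 without single arrays. The share of all probe sets called in dyt1 without single arrays was not computed, so this range is not read as particular to the list. In ams 2 were called, 1 with centring, and 0 to 5 without single arrays. Of the 187 neighbours, 0 to 17 were called lower and 1 to 16 higher in ams without single arrays, and 2 higher with the replicate block. Over all probe sets, 0.273% to 10% were called lower and 0.954% to 8.2% higher in ams without single arrays. With the block, chosen although the numbers do not pair the arrays, no member call changed. Among the dyt1 arrays, wild type 1 and 2 correlated best with their own number and wild type 3 did not, but all these values were small. Wild type 1 had 0.08 with dyt1 1 and 0.07 with dyt1 3, and wild type 2 had 0.15 with dyt1 2. Among the ams arrays, wild type 1 was best with ams 2 (0.13), wild type 2 with ams 1 (0.14) and wild type 3 with ams 3 (0.24). In each case the cause was not tested. Signal near background limits the members at the bottom of the scale.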
